A study of Mus musculus with 5 samples.

Results

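The genes of antigen presentation by major histocompatibility complex (MHC) class II were followed in RNA sequencing libraries of Lewis lung carcinoma (LLC), a mouse lung tumor line, across 5 treatment groups with 1 library per group. Their 9 members were taken by symbol from a fixed list: H2-AA, H2-AB1, H2-EB1, CD74, CIITA, H2-DMA, H2-DMB1, H2-OA and CTSS. Of these, 8 had a row in all 3 tables that were joined, among 13979 gene symbols shared by those tables. H2-OA was not listed in the table of Control and PAZA. CIITA had a mean level under the minimum of 1 used for comparisons, so 7 of the 9 members were compared between groups and CIITA and H2-OA are given as values only.

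By their labels, the groups were Control, BMN alone, PAZA alone, BMN at a low dose with PAZA, and BMN at a high dose with PAZA. BMN is a PARP inhibitor, and PAZA is a polymer nanocarrier to which azacytidine, an inhibitor of DNA methyltransferases, is conjugated. The labels describe LLC cells kept in culture and treated for 72 h, whereas the methods of the study describe LLC tumors collected after the last treatment, from female C57BL/6 mice bought for the study. No label says how many animals or cultures stand behind a library, and the labels do not give the doses. The paper changed the doses of BMN and azacytidine in the combination together. Low and high dose therefore need not differ in BMN alone. In its gene set plots, BMN alone and PAZA alone were given at the low dose. The high dose against BMN may then not be matched in dose. With 1 library per group no spread between replicates exists, so no test was possible, no p-value is given, and no neighbours in an order of levels can be said to differ beyond their spread.

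MHC class II molecules carry peptides from proteins that a cell has taken up and show them to CD4+ T cells. They are pairs of an alpha and a beta chain, held by the invariant chain CD74 until proteases in the endosome, cathepsin S (CTSS) among them, cut it away. H2-DM then exchanges the remaining fragment for a peptide, and H2-O restrains H2-DM. Dendritic cells, B cells and macrophages express class II genes constantly or on activation, and many other cells do so under interferon gamma, in each case through the transactivator CIITA. In tumors, class II RNA can come from infiltrating cells and from the tumor cells themselves. In bulk RNA, fewer cells of a type and less RNA per cell cannot be told apart.

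Levels below are FPKM values (fragments per unit of gene length and of sequenced fragments) scaled so that the 13979 shared symbols sum to 1000000 in each library, and are comparable between genes. The tables had been scaled separately by the authors, so that the level of a group set against one from another table rests on this common scale. A log2 fold change is taken on the level plus 1, and a gene was counted as higher or lower when the difference was at least 2-fold on that scale. Of the 13979 symbols, 11214 had a mean level of at least 1 over the 5 libraries, and these are the background for each comparison. Sequencing depth is unknown, because no counts were used here.

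The labels give lung and LLC cells. Of the lung epithelium markers, SFTPC, SFTPB, SFTPA1, SCGB1A1 and NKX2-1 were listed at 0 in the only table that holds them, that of BMN and BMN/PAZA low dose, and AGER was listed above 0 in BMN/PAZA low dose alone. Leukocyte genes had values in every library. PTPRC, the pan-leukocyte phosphatase CD45, stood between 27.0 and 46.0. The macrophage gene CD68 stood between 45.8 and 64.7.

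The classical chains were highest in PAZA and lowest in the BMN/PAZA low dose library. H2-AB1, the beta chain of the I-A molecule, was the most abundant chain, with levels of 118 in Control, 122 in BMN, 164 in PAZA, 50.1 in BMN/PAZA low dose and 64.8 in BMN/PAZA high dose. H2-AA, its alpha chain, had levels of 22.5 in Control, 28.5 in BMN, 38.8 in PAZA, 18.3 in BMN/PAZA low dose and 24.3 in BMN/PAZA high dose. H2-EB1, the beta chain of I-E, had levels of 25.1, 24.9, 34.8, 12.3 and 13.8 in the same order of groups. The 3 chains therefore shared their highest and their lowest library. From the lowest to the highest library, H2-AB1 spanned 3.28-fold, H2-EB1 2.83-fold and H2-AA 2.12-fold. Mice of the H-2b haplotype lack a working alpha chain for I-E, so that H2-EB1 RNA need not give a surface molecule there. The row for that alpha chain, H2-EA-PS, was listed at 0 in BMN, PAZA and BMN/PAZA high dose, and above 0 in BMN/PAZA low dose, at 0.175 FPKM in the table with BMN and 0.571 FPKM in that with the high dose.

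These genes lie together in the MHC on chromosome 17 of GRCm38, where 6 members fall within 224 kb, from 34092340 to 34316674. H2-OA spans 34092340 to 34095234, H2-DMA 34119541 to 34139101, H2-DMB1 34153072 to 34160230, H2-AB1 34257689 to 34269419 and H2-EB1 34305867 to 34316674, all on the plus strand. H2-AA spans 34282744 to 34287823 on the minus strand. All are annotated as protein coding.

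Class II promoters are known for a shared array of X, X2 and Y boxes, bound by the RFX complex, CREB and NF-Y, on which CIITA assembles. The bases just before the start are shown for 4 members, because letters of these elements were found within that stretch in them. The sequences are from a set of RefSeq promoter windows (GRCm38.p6). The set used here held 6 of the 9 members (7 windows, with a pair for H2-DMA), and H2-AB1, CD74 and CIITA were not in it. Each sequence shows the 150 bases before the start, 5′ to 3′ on the strand of the gene, with matches in capitals. RefSeq's start equals the GENCODE start given above for H2-EB1 and H2-AA. For H2-DMB1 and H2-OA it lies further downstream, so that their stretches run past the GENCODE start into the gene, and positions are counted from the RefSeq start.
H2-EB1 (chr17:34305717-34305866, plus strand): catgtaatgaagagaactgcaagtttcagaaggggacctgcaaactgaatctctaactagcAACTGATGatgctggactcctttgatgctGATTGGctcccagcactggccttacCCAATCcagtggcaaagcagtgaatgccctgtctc
H2-DMB1 (chr17:34153041-34153190, plus strand): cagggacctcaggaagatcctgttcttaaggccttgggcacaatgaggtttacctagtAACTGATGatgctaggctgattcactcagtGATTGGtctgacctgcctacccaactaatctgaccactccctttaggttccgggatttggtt
H2-AA (chr17:34287824-34287973, minus strand): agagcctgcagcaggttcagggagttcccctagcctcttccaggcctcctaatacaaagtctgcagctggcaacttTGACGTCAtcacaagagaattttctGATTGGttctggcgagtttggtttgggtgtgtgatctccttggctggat
H2-OA (chr17:34092229-34092378, plus strand): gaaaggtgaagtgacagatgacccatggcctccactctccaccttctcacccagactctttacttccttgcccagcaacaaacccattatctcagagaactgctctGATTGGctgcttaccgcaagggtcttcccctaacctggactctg

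Capitals mark GATTGG, the inverted CCAAT core of the Y box, AACNGATG, the end of an X box, and TGACGTCA, the cAMP response element that X2 boxes resemble, each searched on both strands in the 250 bases before the start. The matches shown do not overlap one another. H2-EB1 and H2-DMB1 held both AACNGATG, at 89 to 82 and at 92 to 85 bases before the start, and GATTGG, at 60 to 55 and at 62 to 57 bases. H2-EB1 held GATTGG once more on the other strand. H2-AA held TGACGTCA at 74 to 67 bases and GATTGG at 49 to 44, and H2-OA held GATTGG at 44 to 39. One of the windows of H2-DMA held GATTGG at 199 to 194 bases, and the window of CTSS held AACNGATG at 207 to 200. Of all 32851 promoter windows of that length, 14.6% held GATTGG, 1.98% held AACNGATG, 1.55% held TGACGTCA and 0.25% held both of the first pair. A match describes these letters only.

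CD74 and the machinery for peptide loading did not all follow the chains. CD74, on chromosome 18 from 60803848 to 60812652, had levels of 38.8 in Control, 40.4 in BMN, 56.3 in PAZA, 24.3 in BMN/PAZA low dose and 22.2 in BMN/PAZA high dose, again highest in PAZA. Its levels in PAZA and BMN/PAZA low dose depend on the table, as given further on, and from the table that those groups share they were 23.3 and 87.3. H2-DMA, the alpha chain of H2-DM, had levels of 3.73 in Control, 10.7 in BMN, 13.8 in PAZA, 7.02 in BMN/PAZA low dose and 8.06 in BMN/PAZA high dose. Control was its lowest library and PAZA, at 3.70 times the level of Control, its highest. H2-DMB1, its beta chain, had levels of 10.1 in Control, 9.47 in BMN, 11.3 in PAZA, 11.4 in BMN/PAZA low dose and 5.71 in BMN/PAZA high dose. Only BMN/PAZA high dose stood apart for H2-DMB1, and the other 4 libraries lay between 9.47 and 11.4. H2-DMB1 has a near-identical neighbour, H2-DMB2, which stood under 1 in all 5 libraries, so that reads could have been divided between them.

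CTSS, on chromosome 3 from 95526786 to 95556403, was the most abundant member. Its level was 304 in Control, 257 in BMN, 270 in PAZA, 194 in BMN/PAZA low dose and 171 in BMN/PAZA high dose. Control was highest and the BMN/PAZA libraries lowest, with PAZA below Control, unlike the chains. CIITA, on chromosome 16 from 10480059 to 10528418, stood at 0.532 in Control, 0.757 in BMN, 0.561 in PAZA, 0.717 in BMN/PAZA low dose and 0.573 in BMN/PAZA high dose. It was therefore under 1 in all 5 libraries on these tables, although its level in BMN/PAZA low dose was 1.41 from the table with BMN. Neither its highest nor its lowest library was that of the chains. H2-OA, the alpha chain of H2-O, was listed at 0 in BMN and BMN/PAZA low dose and at 0.648 FPKM in BMN/PAZA high dose. In total, 5 of the 7 members compared (H2-AA, H2-AB1, H2-EB1, CD74 and H2-DMA) were highest in PAZA, as were 14.6% of the 11214 genes. For CD74 this rests on the table of Control and PAZA.

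**Figure D1:**
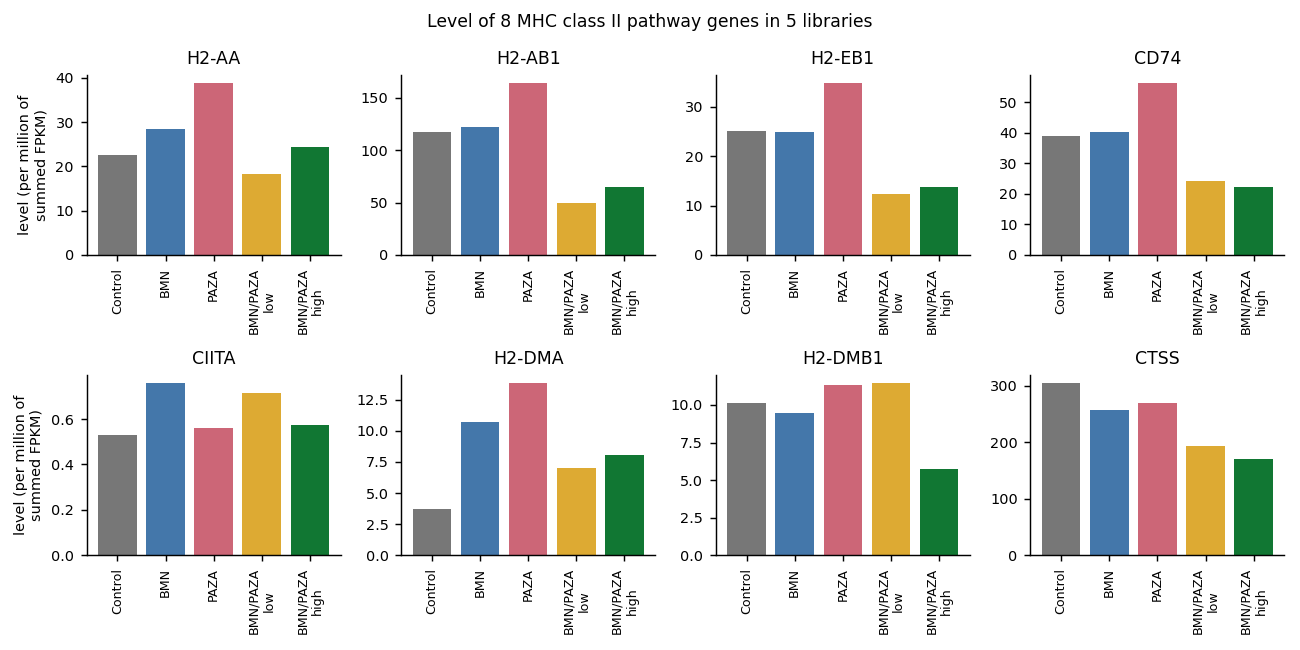
Level of 8 members in each library, as FPKM scaled to a library sum of 1000000, with 1 bar per library and an axis that starts at 0. H2-AA, H2-AB1, H2-EB1 and CD74 are tallest in PAZA (for CD74, from the table of Control and PAZA), whereas CTSS is tallest in Control at 304 and CIITA stays under 1.

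Against Control, PAZA alone had higher levels of most members. The median log2 fold change of the 7 members was 0.47, beside -0.098 over all 11214 genes. Above 0 were 6 of the 7, and 41.6% of all genes. H2-AA was higher by 0.76 on the log2 scale, CD74 by 0.53, H2-AB1 by 0.47 and H2-EB1 by 0.46, and CTSS stood at -0.17. With the PAZA value of the table shared with the low dose, CD74 turned to -0.71, while the other values come from genes that keep the constant. Past 2-fold stood H2-DMA alone, at 1.65, so that 1 of 7 members was counted as higher and 0 as lower. Over all genes, 3.65% were at least 2-fold higher in PAZA and 3.83% at least 2-fold lower. Both columns come from 1 table.

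BMN alone was close to Control for the chains. H2-AB1 differed by 0.055 on the log2 scale, CD74 by 0.055 and H2-EB1 by -0.0099, and the sign for H2-AB1 and CD74 turned when fold changes were centred on all genes. H2-AA stood at 0.33. H2-DMA was again past 2-fold, at 1.31, which gives 1 of 7 members higher and 0 lower, where 4.99% of all genes were higher and 2.39% lower. The median of the members was 0.055, beside 0.092 for all genes.

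BMN/PAZA low dose had lower levels of the chains than Control. H2-AB1 was past 2-fold, with a log2 fold change of -1.22, and H2-EB1, at -0.97, lay just inside. CD74 stood at -0.66, CTSS at -0.64 and H2-AA at -0.28, whereas H2-DMA stood at 0.76 and H2-DMB1 at 0.16. CD74 turned to 0.29 with the table of BMN and low dose and to 1.15 with that of PAZA and low dose. The first lists it at 2 times the constant between tables, and the second at 1.5 times the PAZA value, as given further on. The number of tables with CD74 above Control was therefore not read as a result. The count was 1 of 7 members lower and 0 higher, with 3.87% of all genes lower and 3.74% higher. The median of the members was -0.64, beside -0.077 for all genes.

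BMN/PAZA high dose gave a similar order against Control. H2-AB1 stood at -0.85 on the log2 scale, CTSS at -0.83, H2-EB1 at -0.82, CD74 at -0.78 and H2-DMB1 at -0.73, whereas H2-DMA stood at 0.94 and H2-AA at 0.11. None of the 7 members passed 2-fold in either direction, where 5.55% of all genes were lower and 3.34% higher. The median of the members was -0.78. All genes had a median of -0.22 in this comparison, so the members lay 0.56 below it. All 4 comparisons share the Control library.

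**Figure D2:**
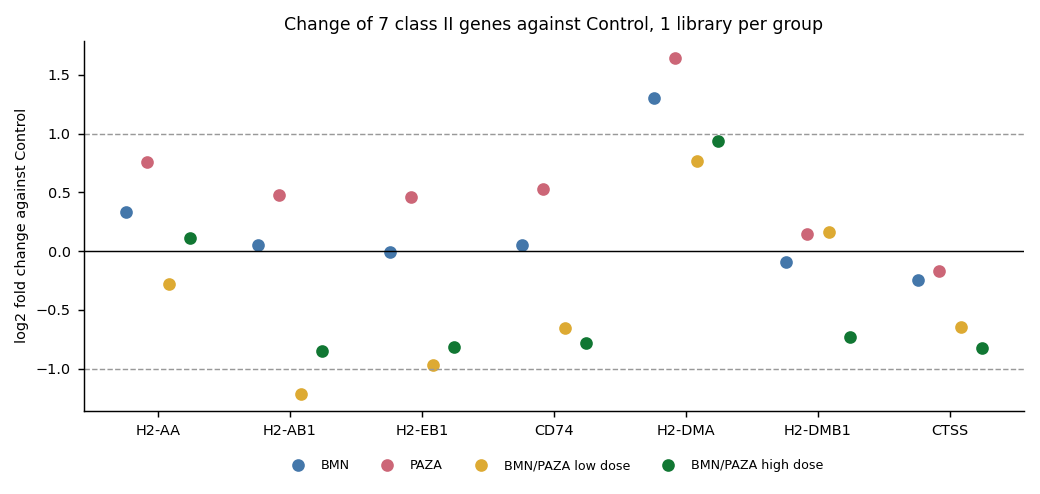
Log2 fold change of 7 members against Control on the level plus 1, with 1 point per treated library and dashed lines at 2-fold. H2-AB1 in BMN/PAZA low dose is the single point under the lower line, at -1.22, and H2-DMA in BMN and PAZA gives the points above the upper one.

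The widest difference for the chains was between the low dose combination and its carrier alone. Against PAZA, BMN/PAZA low dose had log2 fold changes of -1.69 for H2-AB1, -1.43 for H2-EB1, -1.18 for CD74 and -1.04 for H2-AA. H2-DMA stood at -0.88, CTSS at -0.47 and H2-DMB1 at 0.014. Lower past 2-fold were 4 of the 7 members and higher 0, where 2.93% of all genes were lower and 2.5% higher. The members had a median of -1.04, beside 0.026 for all genes. This count holds on the values of separate tables, but CD74 stands at -0.23 with the low dose value of the table with BMN, and is listed with the opposite direction in the table that holds both groups, as given further on.

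Against BMN alone, BMN/PAZA low dose had a log2 fold change of -1.27 for H2-AB1, -0.96 for H2-EB1, -0.71 for CD74 and -0.61 for H2-AA. H2-DMB1, at 0.25, was the 1 member above 0. From the other tables CD74 turned to 0.24 and 1.09. The count was 1 of 7 lower and 0 higher, with 6.51% of all genes lower and 3.42% higher, and medians of -0.61 for the members and -0.18 for all genes. BMN/PAZA high dose against BMN had 0 of 7 members past 2-fold, where 7.62% of all genes were lower and 2.36% higher. Its values ranged from -0.91 for H2-AB1 to -0.22 for H2-AA, with a median of -0.64 beside -0.31 for all genes. Centred on all genes, H2-AA turned to 0.087 there.

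Between the doses the chains differed little. BMN/PAZA low dose against BMN/PAZA high dose gave -0.39 for H2-AA, -0.37 for H2-AB1, -0.16 for H2-EB1 and 0.12 for CD74 on the log2 scale, and CD74 turned to -0.013 when centred and to 1.07 and 1.93 with the low dose values of the other tables. H2-DMB1 was higher at the low dose by 0.89. Past 2-fold were 0 of 7 members in each direction, where 3.49% of all genes were higher and 2.38% lower. The median was -0.16, beside 0.13 for all genes. As deposited, however, the low dose column of this table stands at a higher total than that of the high dose, and without the common scale all 7 members would be past 2-fold higher, with a median of 1.42.

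Ratios between members inside a library do not depend on the scaling between libraries. The chains of I-A did not keep a constant ratio. The level of H2-AB1 was 5.24 times that of H2-AA in Control, 4.29 times in BMN, 4.23 times in PAZA, 2.73 times in BMN/PAZA low dose and 2.67 times in BMN/PAZA high dose. Thus the combination libraries were the low ones and Control the high one. In contrast, H2-AB1 over H2-EB1 lay between 4.07 and 4.91 in all 5 libraries.

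CD74 kept close to H2-AB1 in 4 libraries on these tables. Their ratio was 0.330 in Control and in BMN, 0.343 in PAZA and 0.343 in BMN/PAZA high dose, and 0.485 in BMN/PAZA low dose. The ratio depends on the table: for BMN/PAZA low dose it was 0.969 in the table with BMN and 1.77 in that with PAZA, where PAZA had 0.141. H2-DMA over H2-DMB1, the chains of 1 heterodimer, was 0.368 in Control, 1.13 in BMN, 1.22 in PAZA, 0.614 in BMN/PAZA low dose and 1.41 in BMN/PAZA high dose. Every treated library was above Control for this ratio. CTSS over H2-AB1 was lowest in PAZA at 1.65 and highest in BMN/PAZA low dose at 3.88.

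**Figure D3:**
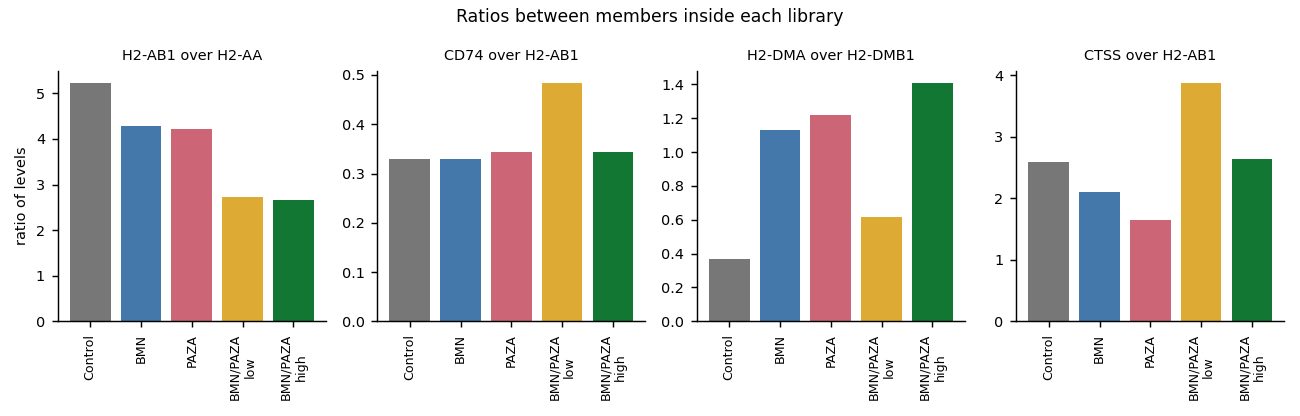
Ratio of the levels of a pair of members inside each library, with 1 bar per library and axes that start at 0. H2-AB1 over H2-AA is highest in Control at 5.24, and CD74 over H2-AB1 stands between 0.330 and 0.343 except in BMN/PAZA low dose, where it is 0.485 from the table plotted and 0.969 or 1.77 from the others.

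The values of CD74 and CIITA depended on the table they were read from. The BMN/PAZA low dose library is held by 3 tables and the PAZA library by 2, and most genes differ between tables by 1 constant. A gene was said to be off the constant when it lay over 0.5% from it. Between the tables of BMN/PAZA low dose with BMN and with BMN/PAZA high dose, 2.44% of 15467 genes were off the constant, and among the 9 members CD74 and CIITA were, both at 2 times the constant. H2-AA, H2-AB1, H2-EB1, H2-DMA, H2-DMB1 and CTSS kept it in every pair of tables. The values of BMN were the same in both tables that hold it.

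Where PAZA and the low dose share a table, CD74 was listed at 13.5 FPKM in PAZA and 49.3 FPKM in BMN/PAZA low dose. From the other tables, multiplied by the constants, 32.9 FPKM was obtained for PAZA and 13.5 FPKM for BMN/PAZA low dose. The listed PAZA value thus equalled the low dose value of the other table, and the listed low dose value equalled 1.5 times the PAZA value. CIITA had the same relation, at 0.400 and 0.491 FPKM as listed and 0.327 and 0.400 FPKM from the other tables. The relation held, within 0.5%, for 169 of 13142 genes, or 1.29%. The ratio of BMN/PAZA low dose to PAZA for CD74 was 3.64 as listed and 0.412 from the other tables, while H2-AB1 had 0.292 in both and H2-EB1 0.338 in both. How these values arose was not tested.

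In the table with BMN, CD74 was listed at 21.0 FPKM in BMN and 28.4 FPKM in BMN/PAZA low dose, a ratio of 1.35, where the low dose value of the table with BMN/PAZA high dose would give 14.2 FPKM and 0.675. For CIITA the ratio was 2.13 as listed and 1.06 with the other value. The direction of CD74 between BMN/PAZA low dose and Control or either single agent, and between PAZA and Control, therefore rests on the choice of table, whereas the 6 other members compared had the same ratios from either source.

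**Figure D4:**
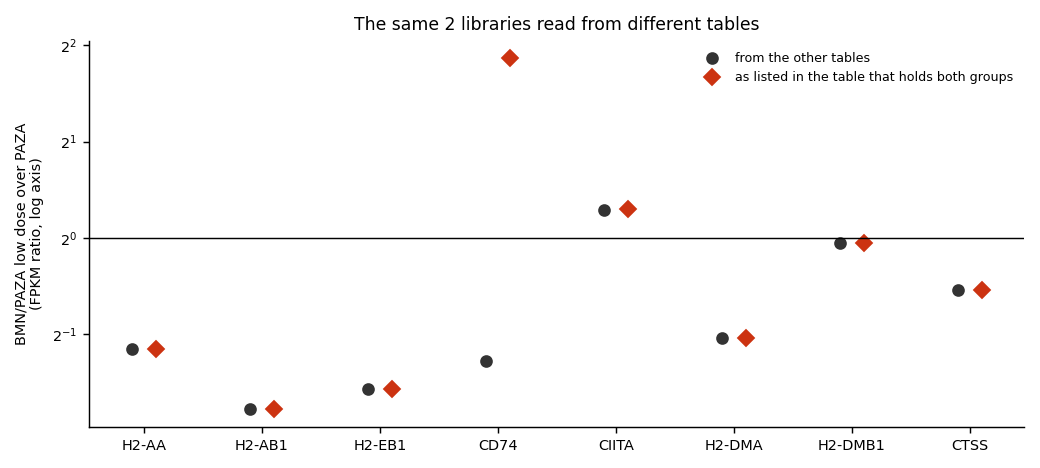
Ratio of BMN/PAZA low dose to PAZA for 8 members on a log axis, from the table that holds both groups (diamonds) and from the other tables (circles). The symbols stand level for 7 members, and CD74 is listed at 3.64 in one and 0.412 in the other; for CIITA the ratios are close, at 1.23 and 1.22, although both of its values differ.

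Regulators of class II transcription differed among themselves. Of the 7 genes of the RFX and NF-Y complexes and CREB1, all were compared, and none passed 2-fold in PAZA or in BMN against Control. In BMN/PAZA low dose against Control 1 was higher, RFXANK, and 1 lower, RFX5, where 3.74% of all genes were higher and 3.87% lower. In BMN/PAZA high dose 2 were higher, RFXANK and RFXAP, where 3.34% of all genes were higher. RFXAP, the most abundant RFX subunit, had levels of 23.4 in Control, 38.5 in BMN, 31.4 in PAZA, 28.6 in BMN/PAZA low dose and 50.3 in BMN/PAZA high dose, with its lowest library in Control. RFX5, named after its values were seen, stood at 4.83 in Control and at 1.90 in BMN/PAZA low dose. In BMN/PAZA low dose against PAZA, 1 of the 7 was past 2-fold lower and 0 higher, where 2.93% of all genes were lower and 2.5% higher. The regulator past 2-fold lower was NFYC, a subunit of NF-Y also named after its values were seen. Its levels were 7.57 in Control, 8.76 in BMN, 14.0 in PAZA, 5.89 in BMN/PAZA low dose and 5.73 in BMN/PAZA high dose. Like H2-AB1 and H2-EB1, NFYC was highest in PAZA and lower in both combinations than in the other libraries. The other NF-Y subunits, NFYA and NFYB, were instead highest in BMN, at 36.8 and 55.6, beside 22.5 and 28.1 in PAZA.

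Genes of the interferon gamma route, from cytokine to transcription factors, did not move as a group. Of the 9 genes from IFNG to SOCS1, 7 passed the filter on low values, and IFNG itself stood under 1 in all 5 libraries and at 0 in BMN/PAZA high dose. IRF1, which drives a promoter of CIITA, had 198 in Control and between 79.1 and 94.6 in the other 4 libraries. Against Control, IRF1 was past 2-fold lower in all 4 treated libraries, and no gene of the list was past 2-fold higher. Of all genes, 3.83% were lower past 2-fold in PAZA, 2.39% in BMN, 3.87% in BMN/PAZA low dose and 5.55% in BMN/PAZA high dose. In BMN/PAZA low dose the log2 fold change of IRF1 was -1.27, and from the other tables -0.30 and -0.69, inside 2-fold. The medians of the list were -0.26 in PAZA, 0.079 in BMN, -0.23 in BMN/PAZA low dose and -0.43 in BMN/PAZA high dose. All genes had -0.098, 0.092, -0.077 and -0.22 in the same order. The median of the list in BMN/PAZA low dose turned to 0.37 with the table of BMN and low dose. Control was the highest library for IRF1, whereas the class II chains were highest in PAZA. IRF1 is among 5 of these 9 genes that were off a constant between tables.

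Of the endosomal proteases and the thiol reductase IFI30, all 8 genes were compared, and 1 was past 2-fold in any treated library against Control. It was CTSH in PAZA, at 67.6 in PAZA and 21.4 in Control, where 3.65% of all genes were at least 2-fold higher. CTSL, the most abundant of them, had levels between 2713 in BMN/PAZA high dose and 4560 in BMN. LGMN lay between 198 and 298. Of the 5 co-stimulation genes, CD40 was past 2-fold higher in BMN/PAZA low dose and lower in BMN/PAZA high dose against Control. It stood at 2.66 in Control, 7.27 in the first and 0.631 in the second, and it was off a constant between tables. Of all genes, 3.74% were higher in the first and 5.55% lower in the second. With the table of PAZA and low dose, CD40 was past 2-fold higher in PAZA, at 1.12 on the log2 scale, and inside 2-fold in BMN/PAZA low dose, at 0.79.

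MHC class I genes, which present peptides to CD8+ T cells, had another pattern. All 9 had a log2 fold change below 0 in PAZA against Control, as had 6548 of all 11214 genes. Their median log2 fold change was -0.62 (-0.37 with the PAZA values of the other table), where the class II members had 0.47 and all genes -0.098. Their medians in the other treated groups against Control were -0.47 in BMN, -0.41 in BMN/PAZA low dose and -0.48 in BMN/PAZA high dose. All genes had 0.092, -0.077 and -0.22 in the same order. The class I median of BMN/PAZA low dose was 0.14 and -0.15 from the other tables. H2-K1 had levels of 1277 in Control, 719 in BMN, 1045 in PAZA, 922 in BMN/PAZA low dose and 909 in BMN/PAZA high dose. B2M, the light chain of class I, had 18705 in Control and between 10491 and 12187 elsewhere on these tables, but 20646 and 18883 in BMN/PAZA low dose from the others. Of these 9 genes, 6 were off a constant between tables, B2M among them, and H2-K1 was not. The difference between the classes was not tested, since 1 library stands for each group.

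Markers of cells that carry class II were set beside the chains. The summed level of H2-AA, H2-AB1, H2-EB1 and CD74 was 204 in Control, 216 in BMN, 294 in PAZA, 105 in BMN/PAZA low dose and 125 in BMN/PAZA high dose. Leukocyte markers (6 of 6 with values) summed to 131, 190, 164, 130 and 123 in the same order. Macrophage markers (10 of 10) summed to 500, 579, 562, 516 and 396. The largest part was MRC1, at 189 in Control and 163 in PAZA. Against Control, 9 of the 10 were above 0 in BMN, 8 in PAZA, 7 in BMN/PAZA low dose and 1 in BMN/PAZA high dose. Of all genes, 60%, 41.6%, 43.2% and 32.3% were. The medians of these markers were 0.18, 0.44, 0.087 and -0.27 in the same order. BMN/PAZA low dose thus had 0.514 of the class II sum of Control, 0.989 of its leukocyte sum and 1.03 of its macrophage sum. The leukocyte markers did not move together there, with 4 of 6 above Control and 2 below, PTPRC (27.0 beside 36.6) and ITGB2 (24.3 beside 28.6). With the CD74 values of the other tables the class II share became 0.623 and 0.817. The 3 chains without CD74, which keep the constants, stood at 0.488 of Control, and at 0.480 and 0.482 from the other tables.

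Dendritic cell and B cell markers were low in every library. Dendritic cell markers (8 of 9 with values) summed to 5.79 in Control, 10.2 in BMN, 8.14 in PAZA, 9.91 in BMN/PAZA low dose and 8.67 in BMN/PAZA high dose. Both combinations were above Control on this sum and below it on the class II sum, but the markers did not move together, and 4 of the 9 passed the filter on low values. From Control to BMN/PAZA low dose, CD209A stood at 0.386 and 3.57 and CCR7 at 0 and 2.16, whereas ITGAX, the largest of them in Control at 2.67, was lowest in BMN/PAZA low dose. Among the others, XCR1 and CLEC9A, which define cross-presenting cells, were at 0 in Control, CLEC9A and SIGLECH were at 0 in BMN/PAZA low dose, and FLT3 was under 1 throughout. B cell markers (5 of 8 with values) summed to 4.74 in Control, 1.02 in BMN, 2.53 in PAZA, 2.28 in BMN/PAZA low dose and 4.39 in BMN/PAZA high dose. CD79A and CD79B were at 0 in BMN, and MS4A1 was not listed in all tables. None of these leukocyte, macrophage, dendritic cell and B cell markers was off a constant. The part of cell numbers in the class II levels was not tested.

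Per unit of PTPRC, the class II sum was 5.57 in Control, 4.70 in BMN, 7.25 in PAZA, 3.89 in BMN/PAZA low dose and 4.52 in BMN/PAZA high dose. Per unit of the macrophage sum it was 0.409, 0.374, 0.523, 0.204 and 0.316. PAZA was highest and BMN/PAZA low dose lowest on both. Per PTPRC the lowest place rests on the value of CD74, since BMN/PAZA low dose had 4.79 and 6.27 from the other tables, above BMN and BMN/PAZA high dose. Per macrophage sum BMN/PAZA low dose was still lowest with the table of BMN and low dose, at 0.251, and not with that of PAZA and low dose, at 0.328. For the 3 chains without CD74 the sum per PTPRC was 4.51 in Control, 3.83 in BMN, 5.86 in PAZA, 2.99 in BMN/PAZA low dose and 3.72 in BMN/PAZA high dose, and the low dose had 2.99 from each table. Per macrophage sum the chains were also lowest in BMN/PAZA low dose, at 0.157 from each table.

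**Figure D5:**
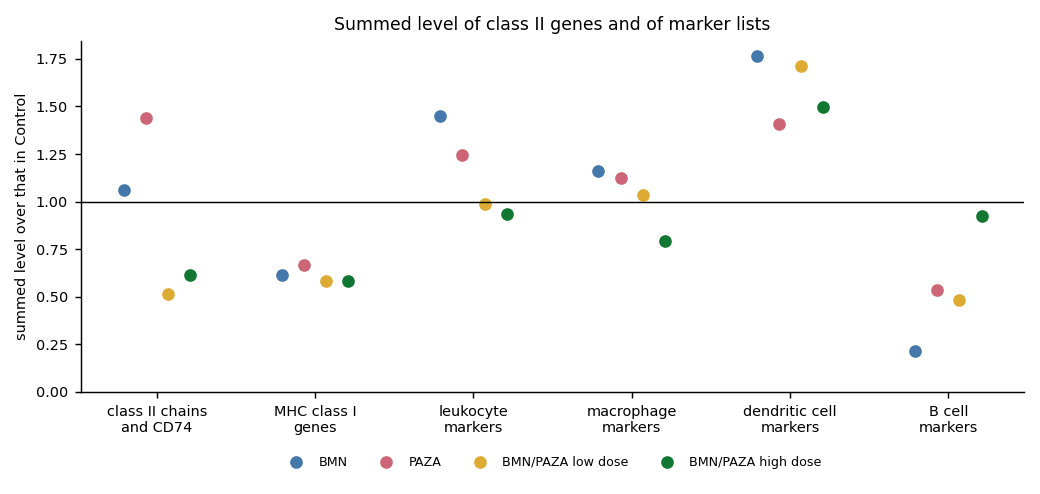
Summed level of each list in a treated library over that in Control, with 1 point per library and a line at 1. For class II chains and CD74, PAZA stands at 1.44 and the combinations at 0.514 and 0.613 (0.488 and 0.622 for the chains without CD74), while leukocyte and macrophage markers in BMN/PAZA low dose stand at 0.989 and 1.03.

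The genes whose levels ran most like the mean profile of H2-AA, H2-AB1, H2-EB1 and CD74 were found by the root mean square distance of centred log2 levels over the 5 libraries, among 11207 genes that are not members. The 8 closest were RCC1, LY86, F8A, EHBP1, CLEC12A, CD72, CCNE1 and ING3, at distances between 0.039 and 0.14 on the log2 scale. LY86, an accessory protein of a Toll-like receptor homologue on B cells and myeloid cells, had levels of 13.2 in Control, 15.3 in BMN, 19.4 in PAZA, 8.89 in BMN/PAZA low dose and 9.73 in BMN/PAZA high dose. CLEC12A, a lectin receptor of myeloid cells, had 15.4, 20.3, 27.2, 10.3 and 9.68. CD72, a co-receptor of B cells, had 21.8, 26.0, 33.6, 16.0 and 14.4. RCC1, which charges the small GTPase Ran, was the closest gene at 18.3, 19.2, 25.9, 10.6 and 11.7. By the same measure CTSS lay at 0.30, with 292 non-members closer, H2-DMB1 at 0.47 with 3775 closer, and H2-DMA at 0.56 with 6925 closer. Without CD74 in the mean profile, 6 of the 8 closest genes were shared with this list. With 5 points per gene, such likeness is a description of these libraries.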

How the data were processed

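RNA was sequenced in 1 library for each of 5 groups. The submitters' processing notes name HISAT2, StringTie and GRCm38, without versions. The authors deposited 5 tables of 2 groups each, and the deposited values, whose unit is not named, were read as FPKM from their form. Columns were mapped to groups by the labels. Control and PAZA were read from their shared table, BMN and BMN/PAZA high dose from theirs, and BMN/PAZA low dose from the table with BMN/PAZA high dose. For a repeated symbol the row of highest mean was kept, and each column was scaled to sum 1000000 over 13979 shared symbols. Fold changes used log2 of the level plus 1, with a minimum mean level of 1 and a call at 2-fold. No test was run, since no group has replicates. The depth is unknown, so no counting error could be given. Constants between tables were median ratios.

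The members and lists were chosen with earlier results of these data known. Lists covered class II regulators, endosomal, interferon gamma, co-stimulation, MHC class I and proliferation genes, and markers of cell types. Up to 4 genes of highest mean were named per list, and others were named where a count was small. Gene positions came from GENCODE M21 (GRCm38). Alternatives concerned the pseudocount, filter, scaling, repeated symbols, source table and fold. The fold calls and the search for genes off a constant were tested on simulated data. Python 3.11.15, numpy 2.4.6, pandas 2.3.3 and matplotlib 3.10.9 were used.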

Additional observations from a re-analysis of the deposited data

How the results depend on the processing

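No paired analysis was possible because each group has 1 library, and no library could be left out for the same reason. The unknown depth limits every value near 0, such as those of CIITA and H2-OA. The scaling over genes at the constant in every table was chosen after seeing the data, as were the class II sums and profile without CD74 and the sums, ratios and lists read from other tables. Over all alternatives, 639 of 726 values kept their direction and their side of the fold (counts of members within 1.5 times), 34 came past the fold, 6 came inside it, 38 moved and 9 reversed. Summing repeated symbols and scaling over genes at the constant in every table moved none, and the 5% tolerance left 2 members off a constant.

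At a 1.5-fold call, members counted as higher were 2 in PAZA, 1 in BMN/PAZA low dose and 1 in BMN/PAZA high dose against Control and 1 at the low against the high dose. Those lower were 4 in BMN/PAZA low dose and 5 in BMN/PAZA high dose against Control, and 4 in each combination against BMN. The shares of all genes given above are at 2-fold only, so these counts at 1.5-fold have no background beside them. The medians of -0.64 and -0.78 against Control and of -0.61 (low dose) and -0.64 (high dose) against BMN passed the 1.5-fold call. With a pseudocount of 0.1, 2 members were lower in BMN/PAZA low dose against Control and 2 against BMN, and H2-DMA made 1 higher in BMN/PAZA high dose against Control, as it did when centred and when scaled without the 100 genes of highest mean. The median of BMN against Control turned to -0.037 when centred and to -0.034 without those 100 genes.

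The median of BMN/PAZA low dose against PAZA came just inside 2-fold with no filter (-0.96), without the 100 genes (-0.99), with the table of BMN and low dose (-0.90), with that of PAZA and low dose (-0.91) and with the deposited columns (-0.88). With the values of the table of PAZA and low dose, CD74 alone among the members reversed past the fold, to 1.15 against Control, 1.09 against BMN and 1.86 against PAZA for the low dose, which made 1 member higher in each of these and in low against high dose. The table of BMN and low dose also made 1 member higher in low against high dose. In deposited columns CD74 stood at 1.79 in low dose against PAZA, as the 1 member higher. Low against high dose as deposited had a median of 1.42 with 7 members higher, among them H2-AA at 1.24, H2-AB1 at 1.31, H2-EB1 at 1.42 and H2-DMA at 1.33, all reversed, which follows from the different column sums.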

Other observations

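Markers of other cells moved in their own ways across the libraries, given as summed levels in the order Control, BMN, PAZA, BMN/PAZA low dose and BMN/PAZA high dose. T cell markers (7 of 8 with values) summed to 17.7, 11.6, 20.7, 8.08 and 4.14, with PAZA highest as for the class II chains, and the T cell receptor gene TRAC was at 0 in BMN/PAZA high dose. Neutrophil markers (5 of 6) summed to 72.8, 64.6, 124, 122 and 233, most of it S100A8 and S100A9, which stood highest in BMN/PAZA high dose, at 132 and 93.2. CSF3R, in contrast, was lowest there at 2.64, and CXCR2 was highest in BMN at 5.00. Endothelial markers (5 of 5) summed to 35.9, 55.6, 61.5, 42.1 and 40.8. Fibroblast markers (6 of 6) summed to 313, 817, 534, 318 and 350, with all 6 at least 2-fold higher in BMN than in Control, as were 4.99% of all genes. Simple epithelium markers (4 of 4) summed to 118, 124, 149, 177 and 139, most of it KRT8. Proliferation genes (5 of 5) summed to 923, 1492, 892, 782 and 721. PCNA was the largest part of that sum in each library and was off a constant between tables, so that the sums of PAZA and BMN/PAZA low dose depend on the table read. Among other class II genes, H2-OB and H2-DMB2 stood under 1 in each library, and H2-EB2 was listed at 0.235 FPKM in BMN and at 0.0467 FPKM in BMN/PAZA high dose.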
